A study of Mus musculus with 15 samples.

Results

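The 9 genes described here encode chemokine receptors: Ccr2, Ccr4, Ccr8, Ccr9, Ccr10, Cxcr3, Cxcr4, Cxcr5 and Cxcr6. They were taken as a named list, chosen with earlier results of these data known, from the 48795 genes of the deposited tables. All 9 were among the 13600 genes that passed a filter on low counts and were tested. RNA was sequenced from invariant natural killer T (iNKT) cells, T cells with a semi-invariant receptor that recognises lipids presented by CD1d, sorted from unmodified C57BL/6 mice (WT) of 6 weeks. The 15 samples came from thymus (n = 4), spleen (n = 4), mesenteric lymph node (mLN, n = 4) and inguinal lymph node (iLN, n = 3), in 2 batches with samples of every tissue in each. No group was treated, and all were sorted alike as TCRβ+ CD1d-tetramer+ cells negative for B220, CD11b, CD11c and CD8. The authors describe the replicates of each tissue as biological. The labels number them WT1 to WT4 without stating if each is a single animal or a pool, so p-values measure only the spread between these samples. iLN replicate 1 was not analysed here.

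Chemokine receptors are G protein-coupled receptors on leukocytes that sense small secreted proteins, the chemokines, and steer cells along their gradients. Ccr9 and its ligand Ccl25 guide lymphocytes to the small intestine and act in the thymus, Ccr4, Ccr8 and Ccr10 are known for traffic to skin, and Ccr2, Cxcr3 and Cxcr6 are known for traffic to inflamed tissue, with Cxcr6 and its ligand Cxcl16 also holding iNKT cells in liver. Cxcr4 holds cells in bone marrow and other niches that make Cxcl12, and Cxcr5 brings lymphocytes into B cell follicles.

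Total counts ran from 8670570 down to 1152702, the lowest being thymus replicate 2, against 4080550 or more in the other samples. The iNKT identity markers Cd3d, Cd3e, Cd3g, Trav11, Trav11d and Zbtb16 summed to between 2406 and 5208 TPM per sample (transcripts scaled by length to the same sum in every sample), and 0 of the 5 that were tested was called over the 4 tissues by edgeR, where 3 had an unadjusted p under 0.05 and DESeq2 called 1. Spleen replicate 1 stood apart by B cell markers, with a summed level of 113 TPM against 10.9 TPM for the median spleen sample, and by myeloid markers, at 88.3 TPM against a median of 10.4 TPM. Lymph nodes were digested with collagenase and other enzymes before the sort and the remaining tissues were only dissociated mechanically, so that this step and the tissue cannot be told apart. In bulk samples such as these, fewer cells of a kind that carries a transcript and less of that transcript in each cell cannot be told apart either.

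Of the 9 receptor genes, 6 differed over the 4 tissues, namely Ccr9, Ccr8, Ccr10, Ccr4, Cxcr6 and Ccr2, whereas 3.38% of all genes tested did (edgeR quasi-likelihood F test, Benjamini-Hochberg adjusted p under 0.01 over all genes). Cxcr3, Cxcr4 and Cxcr5 were not called, with adjusted p = 0.304, 0.0832 and 0.154. Between pairs of tissues a gene was called at the same threshold and a fold change over 1.5. Levels of single genes are given as CPM, counts scaled to a common library size with TMM factors. Thymus differed from spleen in 4 of the 9 (Ccr8 higher, and Ccr9, Ccr2 and Cxcr6 lower in thymus), where 1.32% of all genes were called. mLN differed from spleen in 2 (Ccr8 and Ccr4 higher), where 0.654% were called, and iLN differed from spleen in 3 (Ccr8 and Ccr4 higher, Ccr9 lower), where 1.55% were called. mLN differed from thymus in 2 (Ccr9 and Ccr2 higher; background 1.60%), iLN from thymus in 1 (Ccr2 higher; background 1.5%) and iLN from mLN in 3 (Ccr10 and Ccr2 higher, Ccr9 lower; background 0.471%). These comparisons share samples, since each tissue enters 3 of the 6 pairs. Against spleen, the median fitted log2 difference of the 9 genes was -0.26 in thymus, 0.24 in mLN and 1.0 in iLN. The last is the value of Cxcr4, which was not called. Against thymus the median was 0.96 in mLN and 1.03 in iLN, and for iLN against mLN it was 0.52. The medians over all genes tested lay between -0.01 and 0.03 in the 6 pairs. As the 9 were chosen with earlier results known, these counts and medians describe the listed genes and do not test the family.

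**Figure D1:**
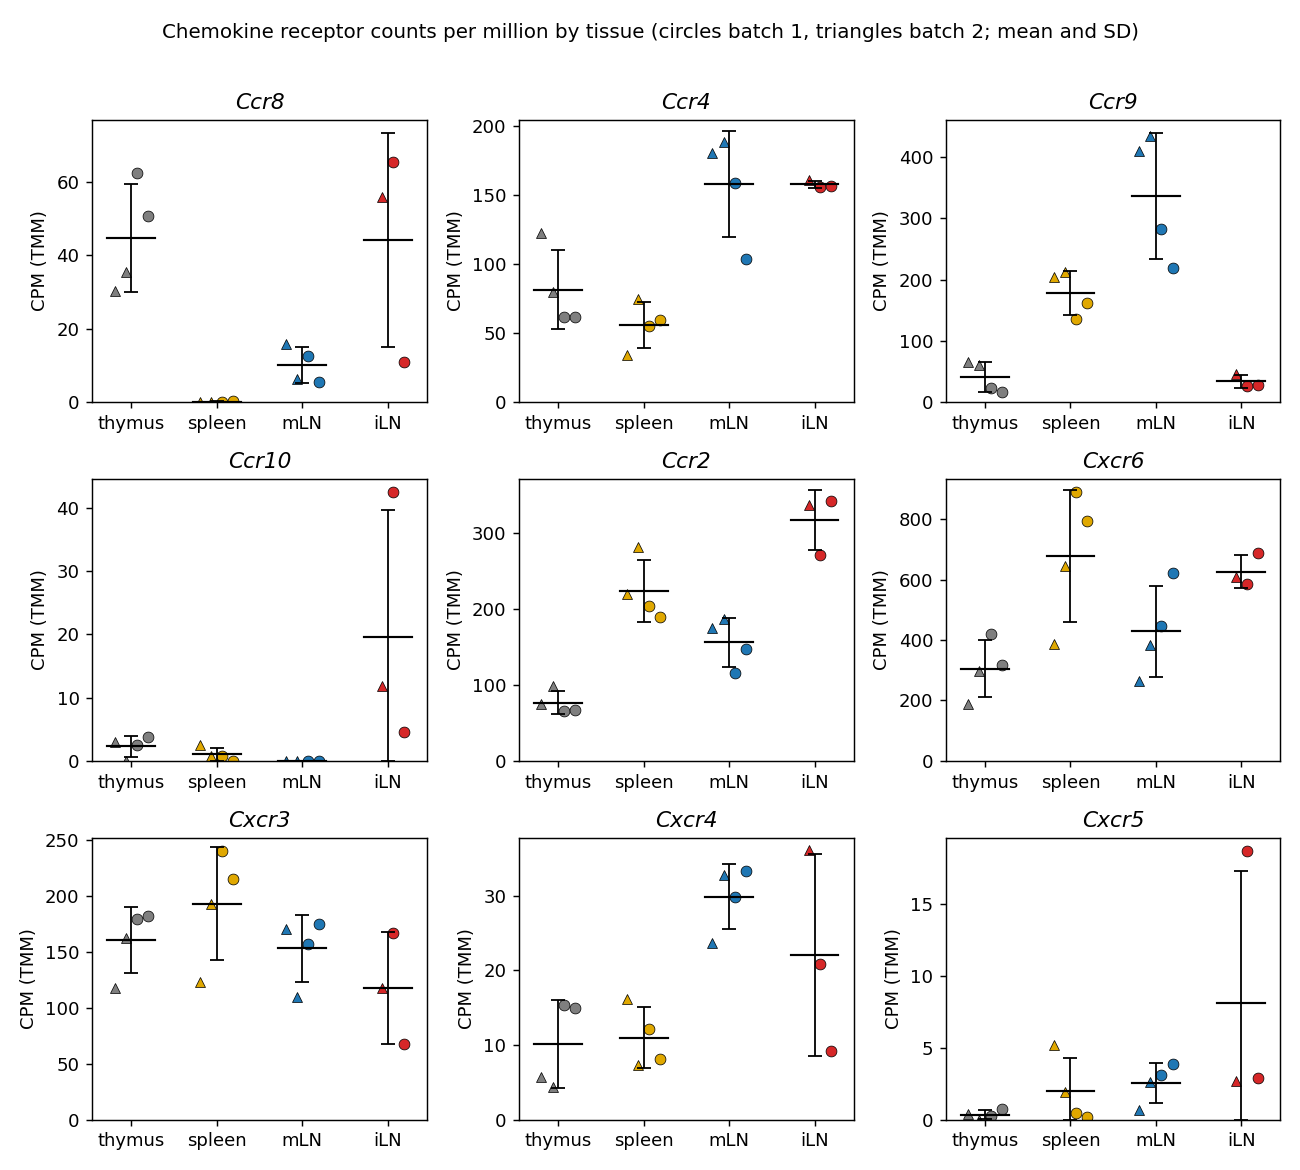
CPM (counts scaled by library size and TMM factors, linear axis) of the 9 chemokine receptor genes in each sample, by tissue. Circles are batch 1, triangles are batch 2, lines are means and bars are SD (cut at 0), with n = 4 for thymus, spleen and mLN and n = 3 for iLN. Ccr8 lies at 0.407 CPM or below in every spleen sample, and Ccr9 is highest in mLN, at 218 to 434 CPM.

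**Figure D2:**
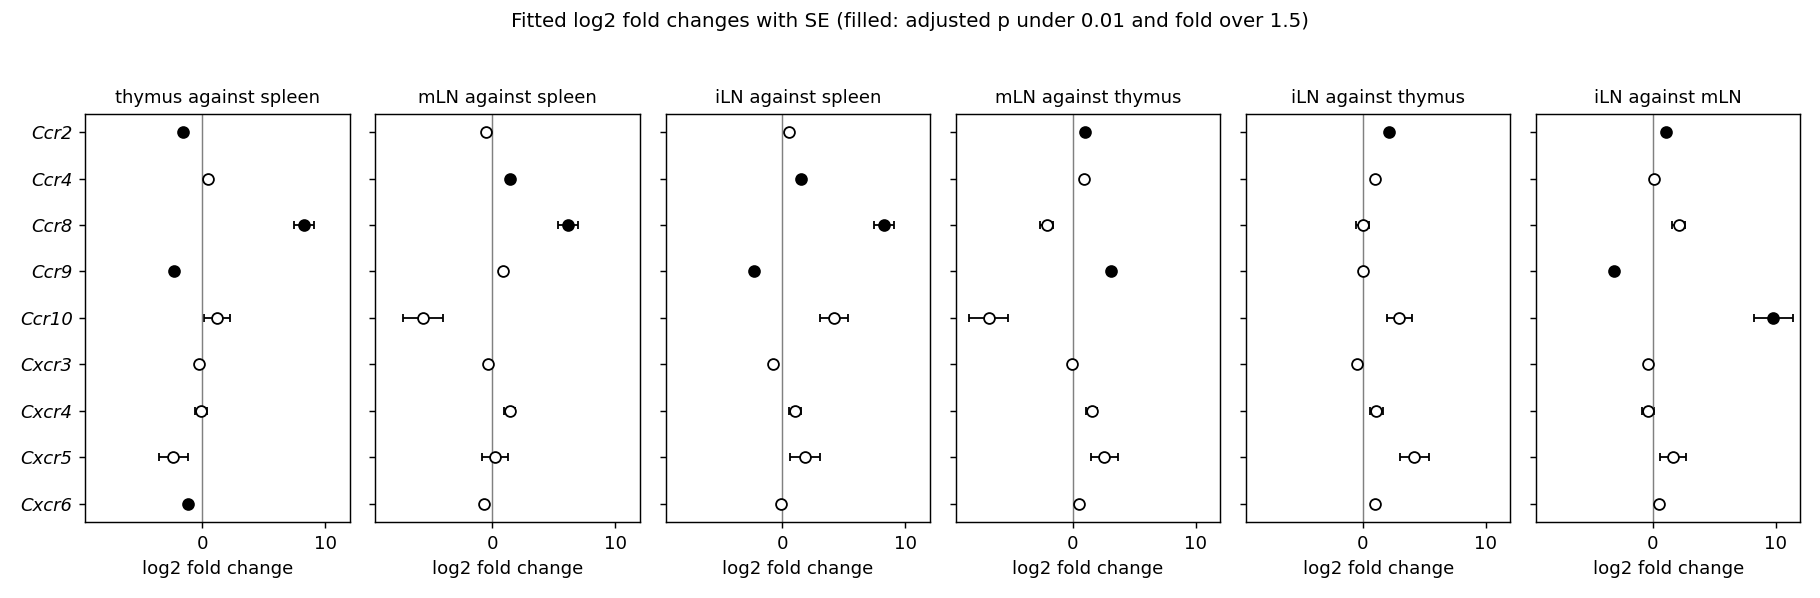
Fitted log2 fold changes (horizontal axis, with SE) of the 9 genes in the 6 pairs of tissues; positive values are higher in the tissue named first. Filled points passed the adjusted p and fold thresholds. The farthest points are Ccr8 against spleen and Ccr10 against mLN, whose fitted size rests on the 3 and 0 counts in the lower tissue.

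The levels of the 9 genes relative to each other were compared as TPM, a scale that divides counts by transcript length. Cxcr6 had the highest TPM of the 9 in each of the 15 samples, with a mean of 219 ± 58.8 TPM (SD, n = 4) in thymus, 479 ± 92.6 in spleen (n = 4), 329.9 ± 124 in mLN (n = 4) and 478 ± 129 in iLN (n = 3). It made up 43.2% ± 6.08 (SD) of the summed TPM of the 9 in thymus, 56.6% ± 7.64 in spleen and 40.6% ± 10.8 in mLN. The gene in the next place differed by tissue. It was Cxcr3 in thymus (128 ± 30.2 TPM) and spleen (152 ± 24.9 TPM), in all 4 samples of each above the gene that followed. In mLN it was Ccr9 (149.6 ± 45.4 TPM), which was above Cxcr3 in 2 of 4 samples, and in iLN it was Ccr2 (139 ± 45.7 TPM), above Cxcr3 in 2 of 3 samples, so that these neighbours were not separated by their spread. Cxcr5 and Ccr10 were at the low end in thymus, spleen and mLN, with means of at most 1.71 TPM, and in spleen Ccr8 was lower still, at 0.168 ± 0.240 TPM.

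**Figure D3:**
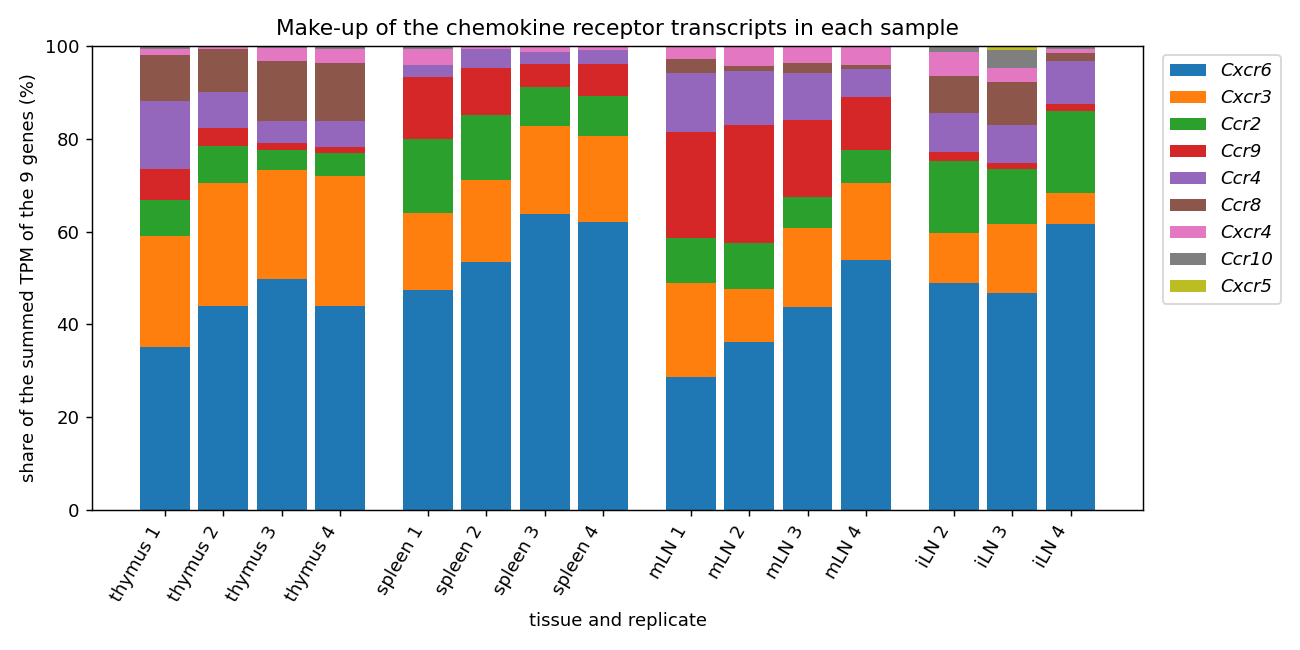
Share of each gene in the summed TPM of the 9 chemokine receptor genes (vertical axis, percent, from 0 to 100), 1 bar per sample, grouped by tissue. Cxcr6 is the largest segment in every bar, Ccr8 takes 9.26% to 13.0% in thymus and at most 0.0560% in spleen, and Ccr9 takes 11.6% to 25.3% in mLN.

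Ccr8, a receptor for Ccl1 found on Th2 cells, regulatory T cells and skin-homing T cells, gave the sharpest contrast with spleen. It had 1, 0, 0 and 2 counts in spleen replicates 1 to 4. In thymus replicates 1 to 4 it was at 30.1, 35.3, 62.3 and 50.5 CPM, in mLN replicates 1 to 4 at 15.9, 6.24, 12.5 and 5.59 CPM, and in iLN replicates 2 to 4 at 55.8, 65.3 and 10.8 CPM. Every sample of the other 3 tissues lay above every spleen sample, and no thymus sample overlapped with mLN, while the 3 iLN samples spread from the range of mLN to above that of thymus. Pooled over samples, Ccr8 was 366-fold higher in thymus than in spleen (784 against 3 counts, 95% interval 125 to 1778, exact, counting error only). The corresponding ratios were 88.8 in mLN (30.1 to 434) and 349 in iLN (119 to 1696). In the edgeR fit the log2 difference from spleen was 8.29 ± 0.80 (SE) in thymus (adjusted p = 2.49e-06). It was 6.17 ± 0.80 in mLN (adjusted p = 4.55e-04) and 8.27 ± 0.81 in iLN (adjusted p = 9.29e-06). Each of these 3 calls held when any 1 library was left out. That of mLN was lost when replicate 1, 2 or 3 was left out in every tissue, with adjusted p = 0.0113, 0.0134 and 0.0253. The lower level in mLN than in thymus (log2 difference -2.12 ± 0.52 SE) did not pass, with an adjusted p = 0.0281, nor did the higher level in iLN than in mLN (2.10 ± 0.54; adjusted p = 0.0576). DESeq2 called both.

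Ccr4, the receptor for Ccl17 and Ccl22, was higher in both lymph nodes than in spleen. It was at 34.4, 75.1, 55.3 and 59.6 CPM in spleen replicates 1 to 4, at 181, 189, 159 and 104 CPM in mLN replicates 1 to 4, and at 161, 156 and 157 CPM in iLN replicates 2 to 4. The lymph node samples all lay above the spleen samples, and iLN lay inside the range of mLN. The log2 difference from spleen was 1.47 ± 0.24 (SE) in mLN (2.77-fold; adjusted p = 0.00331) and 1.54 ± 0.25 in iLN (2.92-fold; adjusted p = 0.00129). The mLN call was lost without spleen replicate 3 (adjusted p = 0.0107) or mLN replicate 3 (0.0214). Both calls were lost when replicate 2, 3 or 4 was left out in every tissue (adjusted p between 0.0139 and 0.0846), and that of mLN also on TPM with limma (0.0200). Thymus lay between, at 123, 80.1, 61.7 and 61.7 CPM. Its range overlapped with that of spleen and its highest sample lay above the lowest mLN sample, and the differences of mLN (adjusted p = 0.0277) and iLN (0.0284) from thymus did not pass. DESeq2 called both (adjusted p = 0.00387 and 0.00332), as did edgeR without the filter on low counts.

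Ccr9, the receptor for Ccl25, split the 2 lymph nodes. It was at 409.9, 434, 282 and 218 CPM in mLN replicates 1 to 4 and at 46.5, 26.8 and 28.6 CPM in iLN replicates 2 to 4. Spleen replicates 1 to 4 were at 204, 212, 135 and 162 CPM, and thymus replicates 1 to 4 at 65.0, 60.3, 22.6 and 16.9 CPM. The order was therefore mLN, spleen, then thymus and iLN, whose samples overlapped. No iLN or thymus sample reached the lowest spleen sample, and every mLN sample lay above every spleen sample. The log2 difference between iLN and mLN was -3.15 ± 0.24 (SE; 8.90-fold lower in iLN; adjusted p = 1.32e-06) and that between mLN and thymus 3.15 ± 0.22 (adjusted p = 4.94e-08). Against spleen, thymus (-2.28 ± 0.21; adjusted p = 1.70e-06) and iLN (-2.28 ± 0.23; adjusted p = 1.09e-05) were lower by the same fitted size. All 4 calls held when any 1 library was left out, with adjusted p at most 2.24e-04. The higher level in mLN than in spleen, 1.83-fold, had an adjusted p = 0.0282 and was not called, although DESeq2 called it. The batches differed within tissue: the 2 batch 2 samples of thymus, spleen and mLN each lay above the 2 of batch 1. Within batch 1 alone the log2 difference between mLN and thymus was 3.66, and within batch 2 alone 2.75.

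The sequences upstream of Ccr4, Ccr8 and Ccr9 are shown because these 3 genes were the ones called between a lymph node and spleen. Each is the 200 bases that lie between 250 and 51 bases before the RefSeq start of the gene in GRCm38.p6, written 5′ to 3′ on the gene's own strand. The Ccr4 window is chr9:114496595-114496794 (minus strand), the Ccr8 window chr9:120091883-120092082 (plus strand) and the Ccr9 window chr9:123766961-123767160 (plus strand). No annotated exon lies in any of them, and those of Ccr4 and Ccr9 lie inside the longer gene span of the GENCODE annotation. Capitals mark matches to the motifs searched.
Ccr4: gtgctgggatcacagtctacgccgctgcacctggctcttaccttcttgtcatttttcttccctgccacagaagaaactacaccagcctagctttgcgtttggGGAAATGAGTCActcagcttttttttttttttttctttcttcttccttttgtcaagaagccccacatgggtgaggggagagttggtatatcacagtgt
Ccr8: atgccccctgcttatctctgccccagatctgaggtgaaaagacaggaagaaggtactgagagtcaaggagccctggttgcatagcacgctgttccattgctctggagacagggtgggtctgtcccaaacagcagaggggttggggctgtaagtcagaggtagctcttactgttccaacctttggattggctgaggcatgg
Ccr9: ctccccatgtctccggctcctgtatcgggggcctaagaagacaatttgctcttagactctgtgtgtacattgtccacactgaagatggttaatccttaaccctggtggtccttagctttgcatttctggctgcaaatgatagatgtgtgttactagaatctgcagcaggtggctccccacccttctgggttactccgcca

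Searched on both strands were an AP-1 motif (TGANTCA, held by 5.57% of the 32851 RefSeq windows of this length), an NFAT core (GGAAA, 48.5%), a RUNX motif (TGTGGT, 11.6%) and a T-box motif (GGTGTG, 13.4%). In the Ccr4 window the NFAT letters, beginning 148 bases before the start, ran directly into the AP-1 letters, beginning 143 bases before it, without overlap. The Ccr8 and Ccr9 windows held none of the 4 motifs. A match to such short letters describes the sequence only.

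Ccr10, the receptor for Ccl27 and Ccl28, was the lowest of the called genes. It had 0 counts in all 4 mLN samples. It was at 11.8, 42.5 and 4.62 CPM in iLN replicates 2 to 4, at 2.96, 0, 2.48 and 3.79 CPM in thymus replicates 1 to 4, and at 2.57, 0.751, 0.748 and 0 CPM in spleen replicates 1 to 4. All 3 iLN samples lay above all others, and iLN replicate 3 alone held 157 of the 250 iLN counts. Pooled over samples Ccr10 was at least 136-fold higher in iLN than in mLN, taking 3 counts over the 4 mLN samples as the limit that a count of 0 allows. Without iLN replicate 3 this bound was 66.8-fold. The edgeR fit called iLN higher than mLN (log2 9.80 ± 1.62 SE, adjusted p = 0.00511). This call was lost without iLN replicate 3 (adjusted p = 0.0261), without any of mLN replicates 1 to 4 (0.0118, 0.0129, 0.0196 and 0.0196) and without thymus replicate 3 (0.0106), and the call over the 4 tissues was lost without iLN replicate 2 (0.0105) or 3 (0.0272). Leaving out any 1 replicate number in every tissue also ended the call between iLN and mLN (adjusted p between 0.0128 and 0.153). The lower level in mLN than in thymus (log2 -6.82 ± 1.59 SE, adjusted p = 0.0277) did not pass. Nor did the higher level in iLN than in spleen (4.19 ± 1.16, adjusted p = 0.0577). DESeq2 called both, as did edgeR without the filter on low counts, which also called mLN lower than spleen. Ccr10 lies on chromosome 11 (101172997 to 101175443, minus strand) and overlaps Cntnap1, a gene on the other strand. Whether the counting used strand is not given in the sources used here. Without strand, fragments in the stretch that these genes share cannot be told apart. Cntnap1 was at 20.9 ± 10.5 CPM (SD, n = 3) in iLN, 13.9 ± 1.73 in thymus, 3.08 ± 1.71 in spleen and 0.34 ± 0.40 in mLN (n = 4 each), the same order of tissues as Ccr10. Its part in the Ccr10 values was not tested.

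Ccr2, the receptor for Ccl2 and a hallmark of inflammatory monocytes and effector T cells, was lowest in thymus and highest in iLN. It was at 74.4, 98.5, 65.8 and 67.4 CPM in thymus replicates 1 to 4 and at 337, 271 and 342 CPM in iLN replicates 2 to 4. mLN replicates 1 to 4 were at 175, 186, 115 and 147 CPM, and spleen replicates 1 to 4 at 219.8, 282, 204 and 189 CPM. Thymus was below every other sample, mLN was below every spleen sample by a narrow margin, and iLN overlapped with spleen through 1 sample on each side. Against thymus, Ccr2 was 4.37-fold higher in iLN (log2 2.13 ± 0.16 SE; adjusted p = 3.66e-07), 2.04-fold in mLN (1.03 ± 0.15; adjusted p = 3.21e-04) and 2.94-fold in spleen (log2 thymus minus spleen -1.56 ± 0.15; adjusted p = 2.49e-06). iLN was also 2.14-fold higher than mLN (1.10 ± 0.16; adjusted p = 7.20e-04). Neither lymph node was called against spleen (mLN -0.53 ± 0.15, adjusted p = 0.0883; iLN 0.57 ± 0.16, adjusted p = 0.0488). All 4 calls held when any 1 library was left out. Leaving out replicate 4 of every tissue lost the calls of mLN against thymus (adjusted p = 0.0136) and of iLN against mLN (0.0548), and leaving out replicate 3 lost the latter (0.0362). That of iLN against mLN was lost without the batch term (adjusted p = 0.0218), and on TPM with limma both it (0.0839) and that of mLN against thymus (0.0473) were lost. The expected counts of Ccr2 were fractional in 12 of the 15 samples, so that some fragments were divided between genes. Those of Ccr4 were fractional in 8 samples and those of Ccr9 in 1. For Ccr8, Ccr10, Cxcr3, Cxcr4, Cxcr5 and Cxcr6 they were fractional in 0 samples.

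Cxcr6, the receptor for Cxcl16 and a standing feature of iNKT cells, was lower in thymus than in spleen by 2.21-fold (log2 -1.14 ± 0.20 SE; adjusted p = 0.00223). It was at 189.8, 296, 421 and 316 CPM in thymus replicates 1 to 4 and at 386, 645, 890.0 and 794 CPM in spleen replicates 1 to 4. The groups overlapped through thymus replicate 3 and spleen replicate 1, and in thymus, spleen and mLN both batch 2 samples lay below both of batch 1. Within batch 1 alone the log2 difference was -1.20, and within batch 2 alone -1.11. mLN replicates 1 to 4 were at 264, 382, 446 and 623 CPM and iLN replicates 2 to 4 at 608, 585 and 688 CPM. The main edgeR fit called no other pair of tissues. Without the filter on low counts mLN was also called against spleen. The call of thymus against spleen was lost without thymus replicate 1 (adjusted p = 0.0155), thymus replicate 4 (0.0157) or spleen replicate 2 (0.0164). It was also lost without replicate 3 (0.0282) or 4 (0.0535) of every tissue, without the batch term (0.0327) and on TPM with limma (0.0440). The call over the 4 tissues was lost without those 3 libraries or spleen replicate 3 or 4 (adjusted p between 0.0108 and 0.0189). iLN was 1.99-fold higher than thymus with an adjusted p = 0.0114, just outside the threshold, and was called by DESeq2. Under edgeR this pair was called without the filter on low counts and with a replicate block in place of batch. It was also called without replicate 1 of every tissue, without spleen replicate 1 and without mLN replicate 1. Cxcr6 lies inside the span of Fyco1.

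Cxcr3, the receptor for Cxcl9, Cxcl10 and Cxcl11 and a target of the transcription factor T-bet, was expressed in all tissues and called in no pair. It was at 160.0 ± 29.6 CPM (SD) in thymus, 193 ± 50.3 in spleen, 153 ± 30 in mLN (n = 4 each) and 118 ± 50 in iLN (n = 3). The farthest pair was iLN and spleen (0.599 of the spleen level; adjusted p = 0.131), and the samples of all 4 tissues overlapped.

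Cxcr4, the receptor for Cxcl12, was at 23.7, 32.8, 29.8 and 33.3 CPM in mLN replicates 1 to 4, above every spleen sample (7.36 to 16.2 CPM) and every thymus sample (4.41 to 15.4 CPM). iLN replicates 2 to 4 were at 36.2, 20.9 and 9.24 CPM and spanned both ranges. The log2 difference of mLN from spleen was 1.43 ± 0.46 (SE; adjusted p = 0.154) and from thymus 1.54 ± 0.47 (adjusted p = 0.0954), neither called. Cxcr4 was called over the 4 tissues only when the filter on low counts was left out, among the alternatives to edgeR's settings and tool that kept all samples.

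Cxcr5, the follicle-homing receptor for Cxcl13, was near the limit of detection. It had 0 to 4 counts in thymus samples, 53, 13, 2 and 1 counts in spleen replicates 1 to 4, 5, 18, 15 and 20 in mLN replicates 1 to 4, and 15, 69 and 17 in iLN replicates 2 to 4. A single sample held most of the counts in spleen (replicate 1) and in iLN (replicate 3). edgeR called no pair. The farthest was iLN against thymus, whose samples did not overlap (log2 4.18 ± 1.19 SE; adjusted p = 0.0602); it was called by DESeq2 (adjusted p = 0.00986) and by edgeR without the filter on low counts. Spleen replicate 1 is the sample with the summed B cell marker level of 113 TPM, and Cxcr5 is also a B cell gene; the part of B cells in this value was not tested. Cxcr5 overlaps Bcl9l.

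Among other receptor genes of the family, Ccr6 and Ccr7 differed over the 4 tissues. Ccr6, the receptor for Ccl20 and a marker of the IL-17-producing NKT17 subset, was at 27.6 to 61.1 CPM in iLN and had 3 counts over the 4 thymus samples. It had 29 of its 31 spleen counts in replicate 1 and 148 of its 156 mLN counts in replicate 2. Spleen replicate 1 is the sample with B cell markers at 113 TPM, and the part of B cells in its Ccr6 counts was not tested. Ccr6 was called higher in iLN than in spleen (adjusted p = 0.00733) and thymus (0.00289), but only 3 and 10 of the 15 fits that left out 1 library kept these calls. Without the batch term both were lost (adjusted p = 0.0482 and 0.0214), as was the call of Ccr6 over the 4 tissues (0.0118). Ccr7, which with Ccl19 and Ccl21 brings T cells into lymph nodes, was at 45.1 ± 17.1 CPM (SD, n = 4) in mLN, 24.2 ± 7.12 in iLN (n = 3), 8.31 ± 3.55 in spleen and 6.96 ± 4.66 in thymus (n = 4 each). It was called in mLN against spleen (log2 2.46 ± 0.46 SE; adjusted p = 0.00749) and thymus (2.64 ± 0.47; 0.00237), calls kept in 6 and 12 of 15 such fits. In iLN it was not called against either.

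Of 19 chemokine genes, ligands of these receptors or of related ones, 4 passed the filter and Ccl5 alone was called. Ccl5, a chemokine made by effector T and NK cells, was at 155 ± 73.2 CPM (SD, n = 4) in spleen, 54.5 ± 11.9 in mLN, 22.6 ± 4.97 in thymus (n = 4 each) and 29.5 ± 9.56 in iLN (n = 3). It was lower than spleen in thymus (log2 -2.68 ± 0.26 SE; adjusted p = 2.49e-06) and iLN (-2.46 ± 0.28; adjusted p = 3.37e-05). mLN lay between, called lower than spleen (adjusted p = 0.00529) and higher than thymus (0.00547), calls kept in 9 and 8 of the 15 fits without 1 library.

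Of 28 genes that act in signalling and desensitisation of the receptors (G protein subunits, kinases, arrestins and RGS proteins), 25 passed the filter. Over the 4 tissues 2 of these were called, where 3.38% of all genes tested were. Both were RGS genes, whose products shorten G protein signals. Rgs2 was at 35.6 ± 7.21 CPM (SD, n = 4) in spleen and higher in thymus (150.0 ± 26.3 CPM, n = 4; log2 2.08 ± 0.21 SE; adjusted p = 3.29e-06) and iLN (119 ± 15.5 CPM, n = 3; 1.78 ± 0.22; adjusted p = 7.00e-05). In mLN it was called higher than in spleen as well (1.26 ± 0.20; adjusted p = 0.00331), in 11 of the 15 fits without 1 library. Rgs10 was higher than spleen in thymus (2.09 ± 0.33, adjusted p = 7.58e-04) and mLN (2.41 ± 0.33, adjusted p = 7.61e-04), with spleen at 12.9 ± 4.19 CPM. Both Rgs10 calls held when any 1 library was left out. That of thymus was lost without replicate 1 (adjusted p = 0.0144) or 3 (0.0171) of every tissue. That of mLN was lost without replicate 1 (0.0108), 3 (0.0340) or 4 (0.0144). Leaving out replicate 4 also lost the Rgs2 call in iLN (0.0139), and leaving out any replicate number lost that in mLN (0.0215 to 0.0470).

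Markers of iNKT subsets moved with the tissues beside the receptors. The 10 NKT17 markers, among them the receptor gene Ccr6 described above, summed to 258 to 686 TPM in iLN and 45.0 to 98.6 in mLN. In spleen they summed to 20.6 to 34.4 TPM and in thymus to 12.8 to 34.4 TPM. In iLN against spleen 9 of the 10 were called higher, Ccr6 included, where 1.55% of all genes were called. The 7 NKT1 markers summed to 833 to 912 TPM in iLN and 917 to 1295 in mLN, against 1622 to 2314 in spleen and 1593 to 2639 in thymus. Of these, 4 were lower in iLN than in spleen, Nkg7, Klrd1, Klrb1c and Ccl5. The 5 NKT2 markers summed to 84.5 to 161 TPM in thymus and 167 to 249.8 in mLN, with only Il17rb called, higher in mLN than in thymus. The 6 regulatory T cell markers, which include genes of any activated T cell, summed to 81.8 to 125 TPM in thymus and 134 to 252 elsewhere, and 3 of them were called over the 4 tissues, Ikzf4, Ikzf2 and Il2ra. Between pairs, the calls ran in both directions. Il2ra was lower in thymus than in spleen (log2 -3.58 ± 0.26 SE; adjusted p = 1.12e-07) and higher in both lymph nodes than in thymus, Ikzf4 and Ctla4 were higher in mLN and Ikzf2 in iLN than in thymus, and Tnfrsf18 was lower in iLN than in spleen (-1.69 ± 0.33; adjusted p = 0.00557). Foxp3 itself, the defining gene of these cells, was at 0 to 0.370 TPM in thymus, 0.13 to 0.80 in spleen, 0 to 13.4 in mLN and 2.84 to 4.44 in iLN, and was called in no pair. Ccr8 and Ccr4 are also regulatory T cell genes. Foxp3 differed from spleen by 3.08 ± 1.16 (log2, SE) in mLN, 3.11 ± 1.14 in iLN and -0.86 ± 1.18 in thymus, without passing (adjusted p = 0.245, 0.157 and 0.912). The part of these subsets in the receptor differences was not tested.

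Double-positive thymocyte markers summed to 5.30 to 47 TPM in thymus, with Rag1 called higher there than in each other tissue, and at most 12.8 TPM elsewhere. B cell markers summed to 1.56 to 2.15 TPM in thymus, with Ebf1 and Pax5 at 0, and to at most 6.56 TPM in either lymph node, and 0 of the 4 tested were called over the 4 tissues by edgeR or DESeq2, with 3 and 2 at an unadjusted p under 0.05. Myeloid markers summed to 1.14 to 9.77 TPM in iLN, with Itgam, Adgre1, S100a8 and S100a9 at 0, 9.21 to 18.9 in mLN, 2.03 to 3.96 in thymus and 5.54 to 88.3 in spleen. Ccr2 is also a monocyte gene, and the part of such cells in its values was not tested. Of the 7, Lyz2 was called lower in thymus than in spleen. Dendritic cell markers summed to at most 10.4 TPM and stromal and endothelial markers to at most 65.8 TPM, and only 1 gene of each list passed the filter, neither called by edgeR over the 4 tissues, though DESeq2 called the stromal and endothelial gene. Red cell markers summed to 68.0 to 340.5 TPM in spleen and at most 66.0 TPM elsewhere, with Hbb-bs called lower in both lymph nodes.

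**Figure D4:**
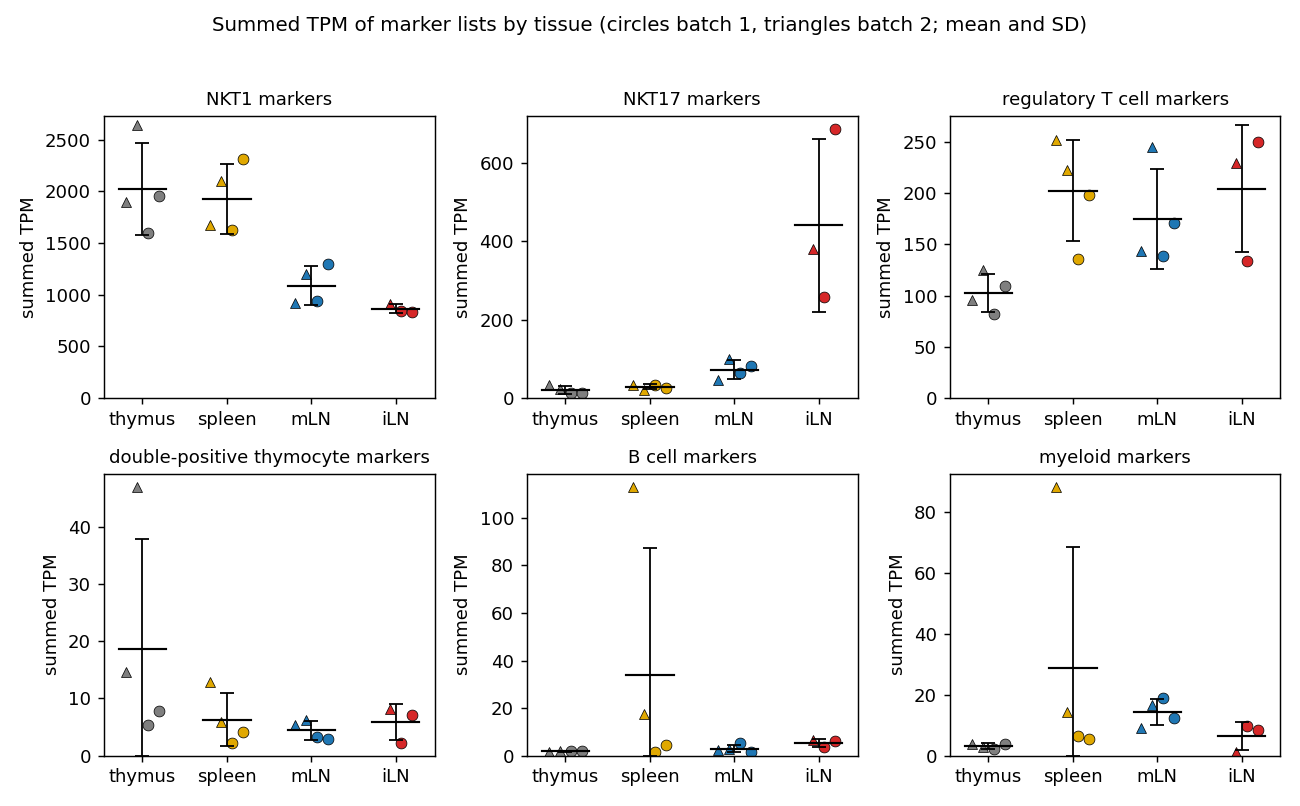
Summed TPM of 6 marker lists in each sample, by tissue (linear axes). Circles are batch 1, triangles are batch 2, lines are means and bars are SD (cut at 0), n = 3 or 4. NKT17 markers are highest in the 3 iLN samples (258 to 686 TPM), and 1 spleen sample stands apart in B cell (113 TPM) and myeloid markers (88.3 TPM).

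For each receptor gene called over the 4 tissues, the genes whose log2 CPM followed it most closely over the 15 samples were listed, out of 10146 genes averaging 5 CPM or more. The receptors were picked for differing over the tissues and tissue was not removed, so a shared order of tissues was built in. The correlations also share libraries, depth and batch and describe these samples only. Ccr9 was followed most closely by Sgk3 (Pearson's r = 0.961), Slamf6 (0.915) and the pseudogene Art2a-ps (0.896). Ccr2 was followed by Rora (0.932), Sept8 (0.913) and Lrrc8b (0.912), and Ccr8 by Hivep3 (0.924), F2rl1 (0.914) and Rgs2 (0.913). Ccr4 was followed by Nup214 (0.932), Anp32a (0.887) and Lipa (0.854). Ccr10 was followed less closely, by Rara (0.885), Gprin3 (0.851) and Ripor2 (0.844), as was Cxcr6, by Espn (0.877), Limd2 (0.858) and Nfkb2 (0.857).

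Of the 9 genes, 6 lie on chromosome 9 (GRCm38, GENCODE). Ccr9 (123678439 to 123784330), Cxcr6 (123806475 to 123811760) and Ccr2 (124101950 to 124113557) lie within a single cluster on the plus strand. These 3 neighbours did not share a pattern over the tissues: Ccr9 was highest in mLN, Cxcr6 had its highest mean in spleen, and Ccr2 was highest in iLN. Ccr8 (120092114 to 120094906), Ccr4 (114490316 to 114504916, minus strand) and Cxcr5 (44511787 to 44561877, minus strand) lie elsewhere on the chromosome. Cxcr3 is on chromosome X (101731535 to 101734269, minus strand) and Cxcr4 on chromosome 1 (128588199 to 128592293, minus strand). The annotated span of Ccr9 overlaps 6 other genes, among them Lztfl1 and Slc6a20a, which matters for its counts as far as fragments fall in shared stretches.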

How the data were processed

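The authors trimmed reads with Cutadapt 1.7.1 and ran RSEM 1.2.31 with Bowtie2 2.2.9 on GRCm38.p6 (versions per the submitters' processing notes). The deposited expected counts are RSEM's estimates of fragments per gene. The deposited TPM values divide these by effective length and scale each sample to the same sum; effective length varied between samples for Ccr9 and Cxcr4. The FPKM values that the authors deposited were not used. The annotation release and the strandedness of counting are not given in the sources used here.

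Expected counts were rounded, filtered with filterByExpr, normalized by TMM (factors 0.755 to 1.18) and fitted with edgeR 4.0.16 (quasi-likelihood, robust; R 4.3.3) with tissue and batch over all 15 samples. SE came from the same fit. Adjusted p-values are Benjamini-Hochberg over 13600 genes. DESeq2 1.42.0 and limma 3.58.1 on log2(TPM + 1) served as alternatives, with RLE factors, no filter, no batch term, a replicate block, single batches, and samples left out; leaving out single libraries, other than thymus replicate 2, was chosen after seeing the data. The procedure was tested on simulated data. Depth was 1152702 to 8670570 counts per sample. Intervals and limits of a count of 0 (3 counts, 95% exact) cover counting error only.

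The 9 genes, the marker and pathway lists and the motifs were chosen with earlier results of these data known. All 9 genes are named. Genes of other lists are named where called in a pair or set beside a receptor, except that some items are not reported here; Cntnap1, Bcl9l, Fyco1, Lztfl1 and Slc6a20a are named because they overlap a receptor gene, a choice made after values were seen. The genes most like a receptor are the 3 with the highest Pearson's r. Promoter windows are from RefSeq (GRCm38.p6), with entries for 7 of the 9 genes, not for Ccr10 and Cxcr5.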

Additional observations from a re-analysis of the deposited data

How the results depend on the processing

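The number of the 9 genes called kept its size within 1.5 times under RLE factors in all comparisons. For mLN against spleen (2 called) it was 5 without the filter on low counts, 1 on TPM with limma, and 1 without spleen replicate 3 or mLN replicate 3. For mLN against thymus (2) it was 5 with DESeq2 and 5 without the filter, and 1 with limma. For iLN against thymus (1) it was 4 with DESeq2 and 4 without the filter, 3 without spleen replicate 1 and 2 without mLN replicate 1. Leaving out 1 replicate number in every tissue gave 0 to 1 for mLN against spleen, 1 to 3 for mLN against thymus, 1 to 3 for iLN against thymus, 1 to 2 for iLN against mLN and 3 to 6 over the 4 tissues. In the edgeR fits for mLN against spleen with 0 called (without replicate 2 or 3), 7 of the 9 had an unadjusted p under 0.05, and DESeq2 on all samples called 3. No fold change of a receptor that the text calls changed direction under any of these settings. The share of all genes called is given above only for the main fit. A change in the count of the 9 under other settings or in single batches cannot be set apart from a change over all genes. The cause of these changes was not tested. Within batch 1 and batch 2 alone, each with fewer samples, 3 and 2 of the 9 were called for thymus against spleen, 0 and 0 for mLN against spleen, 1 and 1 for iLN against spleen, 1 and 1 for mLN against thymus, 1 and 0 for iLN against thymus, 1 and 1 for iLN against mLN, and 3 and 2 over the 4 tissues. Where edgeR called 0, an unadjusted p under 0.05 was reached by 7 (batch 1) and 5 (batch 2) of the 9 for mLN against spleen and by 3 for iLN against thymus (batch 2), and DESeq2 on all samples called 3 and 4. The lone iLN sample of batch 2 was assumed to vary like the other tissues. Same-numbered samples deviated together only weakly (mean r = 0.122, lowest 0.00151 over 21 pairs, against 0.107 for other samples of the same batch), and 13 of 15 samples were closest to one of their own number. The labels do not say what a number marks, so the main fit did not pair the samples by number and may leave out a pairing. The authors used a paired t-test between tissues on clonotype frequencies from this sequencing. With the replicate block in place of batch, 2 of the 9 were called for iLN against thymus, Ccr2 and Cxcr6, and the counts of the other comparisons were the same. Outside the 9, the block ended the calls of Ccr6 in iLN against spleen (adjusted p = 0.0348) and over the 4 tissues (0.0101), of Ccr7 in mLN against spleen (0.0103) and of Ccl5 in mLN against thymus (0.0101). Ccr10 and Cxcr5 had 0 counts in thymus replicate 2, the library with the lowest total, which limits what that sample can show of them.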
